A study of Arabidopsis thaliana with 6 samples.

Results

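The genes described here encode proteins of the large (60S) subunit of the cytosolic ribosome of Arabidopsis thaliana. They were taken from a list of 60 loci, which was chosen with earlier results of these data known. Within it the rule used the annotation alone: a locus counted as measured where the annotation of the array gave it a probe set of its own. This held for 43 of the 60 loci, out of 13286 genes with a probe set of their own, and each of the 43 had exactly 1 such probe set. The remaining 17 loci, among them SAC52, BBC1, STV1, EMB2296 and both genes for RPL5, had no probe set of their own there and enter none of the counts. The 43 genes belong to 22 of the 29 protein families on the list, and 17 of these families had at least 2 measured paralogs.

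Transcripts were measured on Affymetrix ATH1 arrays in the lib mutant (3 arrays) and in the wild type (3 arrays), both of the Columbia-0 ecotype and both untreated. Plants were 8 days old, from upright agar plates that contained 1% sucrose and were kept in a cycle of 16 h light and 8 h dark. The title of the series describes a partial deficiency of isoleucine; the labels give no allele for lib, and the sample labels name whole seedlings where the design text names roots. The labels call the 3 samples of a genotype biological replicates but do not say what was grown or extracted separately, so p-values measure the spread between these samples.

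The 60S subunit holds the centre that joins amino acids into protein, the tunnel through which the new chain leaves, and the stalks that bring in elongation factors and release spent tRNA. In Arabidopsis nearly every ribosomal protein is encoded by several paralogous genes, whose products are very similar and can take the same place in the particle. Transcripts of these genes are abundant in growing tissue such as meristems and young leaves, and ribosomal protein mutants of Arabidopsis are known for narrow, pointed leaves and slow early growth.

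The 60S genes were shifted towards higher signals in lib, mostly by less than 2-fold. Of the 43, 26 rose and 0 fell at an adjusted p under 0.05 (limma with an intensity trend, Benjamini-Hochberg adjustment over all 22746 probe sets), and all 43 had a positive log2 fold change (lib minus wild type), as 46.6% of all probe sets had. That is 60.5% of the members, where 10.4% of all probe sets were called higher in lib and 10.3% were called lower. The median log2 fold change was 0.49, or 1.40-fold, with an interquartile range of 0.32 to 0.78; the median over all probe sets was -0.04. Among the 17754 probe sets at least as bright as the dimmest member, the median was -0.03, with 13% called higher and 12.7% called lower. Changes of at least 2-fold were called for 3 members, AT3G28500, AT2G37600 and AT5G67510, and 2.44% of all probe sets rose that far. The 3 lib arrays lay above the 3 wild type arrays for 40 of the 43 members (93.0%), against 18% of all probe sets. Most members are among the brightest 10% of probe sets, and the share without overlap was not taken over these alone. In bulk plant material, a change in RNA per cell and a change in the share of cells that carry much of it cannot be told apart.

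The count of calls became smaller when an array was left out, as did the count over all probe sets, which was 4708 with all arrays. Without lib replicate 1, 15 members rose (2705 of all probe sets called). It was 16 without wild type replicate 1 (3169 of all) and 14 without wild type replicate 3 (3663 of all). The count was also 12 without the intensity trend (2383 of all), and none of the members fell in any of these settings. Of the 26 calls, 12 held in each of the 14 other settings that could test them: AT3G28500, AT2G37600, AT5G67510, AT3G22230, AT2G20450, AT2G39390, AT3G16780, AT4G13170, AT5G22440, AT4G15000, AT3G09500 and AT3G53740.

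**Figure D1:**
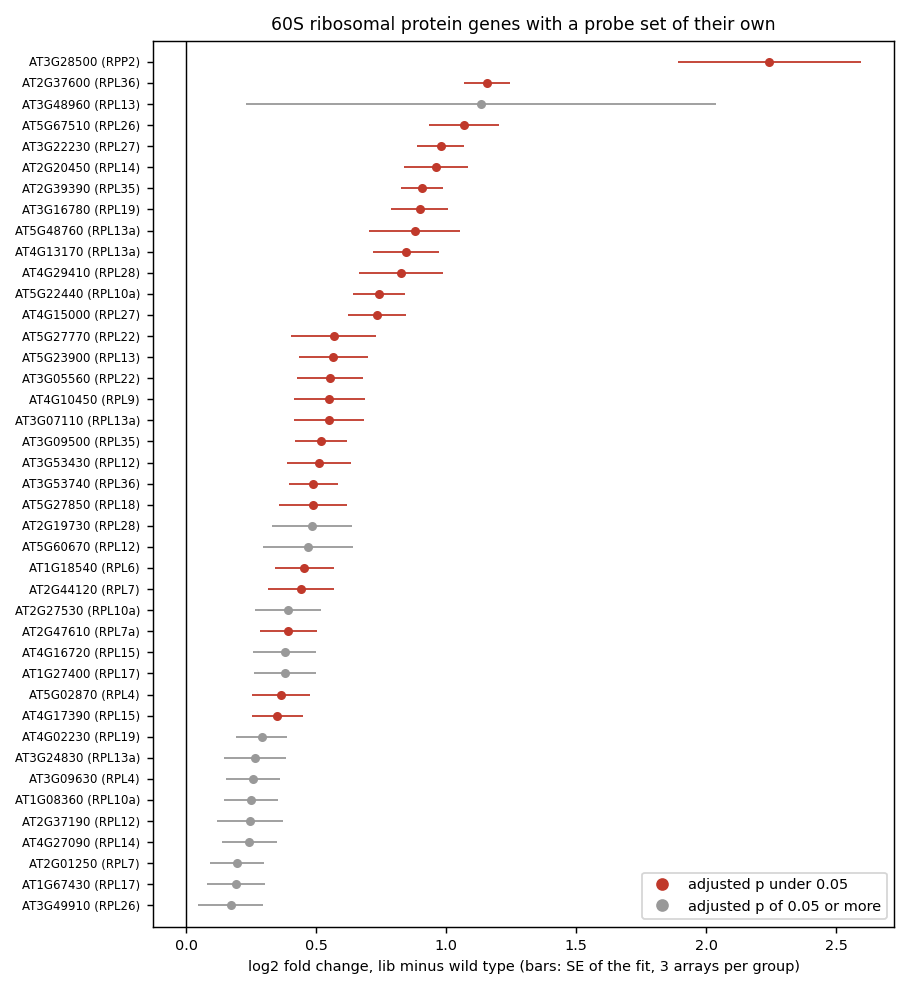
Log2 fold change (lib minus wild type) of 41 of the 43 measured 60S genes, ordered by size, with the standard error of the fit over 3 arrays per genotype and the protein family in brackets. All points lie to the right of 0, from 0.17 to 2.24; red points have an adjusted p under 0.05.

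As a group, the members moved together from array to array within a genotype as well. Lib replicate 3 gave the highest of the 3 lib signals for 34 of the 43 members, and lib replicate 2 the lowest for 31. Among the wild type arrays, replicate 2 was the highest for 28 members and replicate 3 the lowest for 23. These counts were not taken over other bright probe sets, so the shared movement is not shown to be particular to the members. Summed over the 43 probe sets, the members held 2.37%, 2.26% and 2.56% of the total linear signal on lib arrays 1, 2 and 3, against 1.79%, 1.86% and 1.72% on wild type arrays 1, 2 and 3. The members are therefore not independent of each other, and the 26 calls do not count as 26 separate observations. Lib replicate 3 also had the lowest array weight, 0.51, and without it 20 members rose, with a median log2 fold change of 0.40.

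The proteins of the stalk and the GTPase centre, where elongation factors dock, included the largest change among the 43 members. AT3G28500 encodes an acidic P2 protein; P2 proteins pair with P1 proteins on the stalk and activate the elongation factors. Its signal was 167, 192 and 233 on the lib arrays, against 24.7, 67.4 and 42.2 on the wild type arrays. The groups did not overlap, and on the log2 scale the SD was 0.24 among the lib arrays and 0.72 among the wild type arrays. The log2 fold change was 2.24 (SE 0.35, adjusted p = 0.00256, limma), and its probe set is among the dim ones, at the 39.9th percentile of mean signal. Its size depends on the low wild type signals: it was 1.86 with log2(signal + 16) and 1.87 without wild type replicate 1. For RPL12 (uL11), which forms the base of the stalk, AT3G53430 rose by 0.51 (SE 0.12), while AT5G60670 at 0.47 and AT2G37190 at 0.24 did not pass. AT2G37190 had 11584, 10854 and 12550 on the lib arrays, against 9667, 11210 and 8775 on the wild type arrays, so that the groups overlapped (adjusted p = 0.218, limma). AT4G10450, which encodes RPL9 (uL6), a neighbour of the stalk base, rose by 0.55 (SE 0.14).

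AT3G28500 can be set beside the other stalk genes, which were placed on a separate list. Of the 12 other genes for P0, P1, P2 and P3 proteins, 10 rose and 0 fell, with a median log2 fold change of 0.83. With AT3G28500 this made 11 of 13, where 10.4% of all probe sets were called higher. The count became 7 without the intensity trend (2383 of all probe sets called, against 4708). By smallest p the stalk genes were led by AT2G40010, a gene for the scaffold protein P0, at 1.47 (SE 0.15), AT4G00810, a gene for a P1 protein, at 0.80 (SE 0.09), and AT3G11250, a further P0 gene, at 0.81 (SE 0.10). AT5G40040, a second dim P2 gene singled out after its values were seen, had 53.4, 58.7 and 89.2 on the lib arrays, against 15.4, 5.67 and 13.1 on the wild type arrays. It is 1 of the 10 calls, but its wild type signals are near the low end of the scale and detection calls were not used here, so no fold is given for it. The genes that did not pass were AT1G01100 at 0.34 and AT3G09200 at 0.21.

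Genes for proteins around the mouth of the exit tunnel rose in 4 of 6 cases, with a median log2 fold change of 0.71. RPL26 (uL24) is, in human cells, the ribosomal protein to which the small modifier UFM1 is attached on ribosomes at the endoplasmic reticulum. Its gene AT5G67510 had signals of 7335, 7049 and 9778 on the lib arrays, against 3666, 4055 and 3694 on the wild type arrays. Each lib array was well above each wild type array, and the log2 fold change was 1.07 (SE 0.13, adjusted p = 0.000936, limma). Its paralog AT3G49910 had 18192, 16507 and 20543 on the lib arrays, against 16298, 16323 and 16267 on the wild type arrays. The lib arrays were only just above the wild type arrays there, and the log2 fold change of 0.17 was the smallest of the 43 (SE 0.13, adjusted p = 0.394, limma).

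RPL35 (uL29) lies on the tunnel rim, where the signal recognition particle docks. AT2G39390 had 3948, 4080 and 4145 on the lib arrays, against 2165, 2207 and 2125 on the wild type arrays. The log2 fold change was 0.91 (SE 0.08, adjusted p = 0.000223, limma). This SE was the smallest of the 43 members, and AT3G09500, the paralog, also rose, by 0.52 (SE 0.10). RPL19 (eL19) sends a long helix from the tunnel side of the subunit to the small subunit. AT3G16780 had 3234, 3109 and 3655 on the lib arrays, against 1582, 1853 and 1939 on the wild type arrays, and rose by 0.90 (SE 0.11, adjusted p = 0.000782, limma). The paralog AT4G02230 stood at 0.29 and did not pass (adjusted p = 0.0690, limma).

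The wall of the tunnel is lined in part by 2 of the measured families. RPL4 (uL4) and RPL17 (uL22) each send a loop into the tunnel and narrow it. Of their 4 measured genes, AT5G02870 (RPL4) rose by 0.36 (SE 0.11, adjusted p = 0.0462, limma), and AT3G09630 (RPL4) at 0.26, AT1G27400 (RPL17) at 0.38 and AT1G67430 (RPL17) at 0.19 did not pass. The call of AT5G02870 held in 3 of 14 other settings. AT1G67430 had 14877, 13848 and 14736 on the lib arrays, against 12580, 13495 and 11989 on the wild type arrays, so that all lib arrays were higher but by little. For RPL10a (uL1), the protein of the mobile L1 stalk on the side where spent tRNA leaves, AT5G22440 rose by 0.74 (SE 0.10, adjusted p = 0.00121, limma). PGY1, known from mutants with altered leaf polarity, stood at 0.39 (adjusted p = 0.0574, limma) and AT1G08360 at 0.25, and neither passed.

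Among the proteins of the body and surface of the subunit, 17 of 25 genes rose. AT2G37600, for the small protein RPL36 (eL36), had 1486, 1547 and 1677 on the lib arrays, against 687, 728 and 695 on the wild type arrays. The replicates were close to each other in both genotypes, and the log2 fold change was 1.16 (SE 0.09), with the smallest adjusted p of all members, 0.000136 (limma). Its paralog AT3G53740 rose by 0.49 (SE 0.10). AT3G22230, for RPL27 (eL27), had 6399, 5784 and 6029 on the lib arrays, against 2977, 3204 and 3057 on the wild type arrays, and its log2 fold change was 0.98 (SE 0.09, adjusted p = 0.000247, limma). The paralog AT4G15000 rose by 0.73 (SE 0.11), so that both measured RPL27 genes were clearly separated from the wild type. AT2G20450, for RPL14 (eL14), had 3453, 2977 and 3852 on the lib arrays, against 1685, 2001 and 1595 on the wild type arrays, and rose by 0.96 (SE 0.12, adjusted p = 0.00107, limma). The paralog AT4G27090 had 12408, 11789 and 11206 on the lib arrays, against 10474, 9644 and 9823 on the wild type arrays, which gave 0.24 (SE 0.11, adjusted p = 0.147, limma).

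RPL13a (uL13) is known in mammals to leave the ribosome and silence the translation of inflammatory mRNAs. It had 4 measured genes. AT5G48760 had 4435, 3997 and 6637 on the lib arrays, against 2721, 2872 and 2428 on the wild type arrays, with lib replicate 3 well above the other lib arrays. It rose by 0.88 (SE 0.18, adjusted p = 0.00793, limma). AT4G13170 had 4289, 4034 and 5562 on the lib arrays, against 2497, 2718 and 2445 on the wild type arrays, and rose by 0.85 (SE 0.13, adjusted p = 0.00219, limma). AT3G07110 rose by 0.55, and AT3G24830 at 0.26 did not pass. For RPL13 (eL13), AT5G23900 rose by 0.57 (SE 0.13). Its paralog AT3G48960 was the dimmest member and had 22.2, 29.0 and 20.7 on the lib arrays, against 2.11, 20.6 and 29.2 on the wild type arrays. Wild type replicate 1 was far below all other arrays. The log2 fold change was 1.13 (SE 0.90, adjusted p = 0.433, limma) over all arrays and -0.049 without wild type replicate 1.

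RPL28 (eL28), a protein that budding yeast lacks, had AT4G29410 higher by 0.83 (SE 0.16) and AT2G19730 at 0.48 without a call (adjusted p = 0.0546, limma). Both RPL22 (eL22) genes rose, AT5G27770 by 0.57 and AT3G05560 by 0.55. AT5G27850 (RPL18, eL18) rose by 0.49, AT1G18540 (RPL6, eL6) by 0.45 and AT2G47610 (RPL7a, eL8) by 0.39. For RPL7 (uL30), AT2G44120 rose by 0.44, and AT2G01250, with 9563, 9062 and 10036 on the lib arrays, against 7868, 8393 and 8771 on the wild type arrays, stood at 0.20 (adjusted p = 0.227, limma). The lib arrays of AT2G01250 were all above the wild type arrays, but the gap was small. For RPL15 (eL15), AT4G17390 rose by 0.35 (adjusted p = 0.0355, limma), and AT4G16720 at 0.38, a larger value with a larger error, did not pass (adjusted p = 0.0556, limma).

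**Figure D2:**
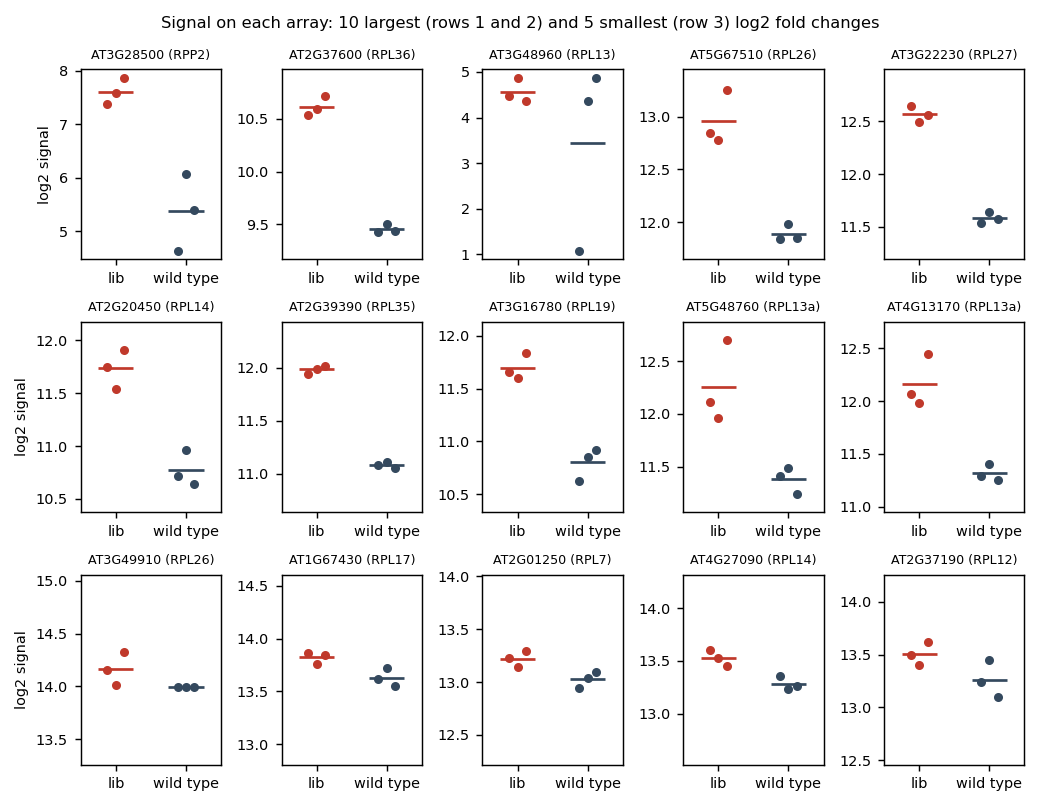
Log2 signal on each of the 3 lib and 3 wild type arrays, with the group mean as a line, for the 10 members with the largest log2 fold change and the 5 with the smallest. Each panel has its own axis; the groups overlap for AT3G48960 and AT2G37190 and lie apart in the other panels.

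Paralogs of one protein were compared by the size of their change. For each of the 17 families, the paralog with the highest log2 fold change was set against the one with the lowest, as the per-array difference of their log2 signals. The pairs were picked as the extremes of each family, so the sign of the difference is fixed by the choice and the values are given as a description. The difference of differences ranged from 0.01 to 0.90 for RPL26, with a median of 0.34. In 9 families the 3 lib arrays did not overlap the 3 wild type arrays in this difference. The choice of extremes favours such separation, and no share over pairs of other probe sets was taken. Over all 26 paralog pairs, the arrays did not overlap for 15, at an exact permutation p of 0.10 (2-sided) each, or 0.173 after Benjamini-Hochberg adjustment. Since 0.10 is the smallest p that 3 arrays against 3 allow, this test could not call any pair.

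The widest gap was that of RPL26. The log2 signal of AT5G67510 minus that of AT3G49910 was -1.31 to -1.07 on the lib arrays, against -2.15 to -2.01 on the wild type arrays, a difference of 0.90 (SE 0.08, n = 3 each). RPL14 followed at 0.72 (SE 0.18), RPL36 at 0.67 (SE 0.09), RPL13a at 0.61 (SE 0.17) and RPL19 at 0.61 (SE 0.08). RPL10a at 0.49 (SE 0.04) and RPL35 at 0.39 (SE 0.06) were smaller. Because these pairs were picked as extremes, the size of a gap against its SE is not a test of it. At the other end, the 2 genes of RPL22 differed by 0.01 (SE 0.10) and those of RPL15 by 0.03 (SE 0.07). RPL13, with the widely spread wild type values of AT3G48960, had a gap of 0.57 with an SE of 1.29. In 4 of the 17 families every measured paralog rose (RPL36, RPL27, RPL35 and RPL22), in 11 only some did, and in 2 families, RPL17 among them, none passed; a call on one paralog only is not in itself a difference between the paralogs.

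**Figure D3:**
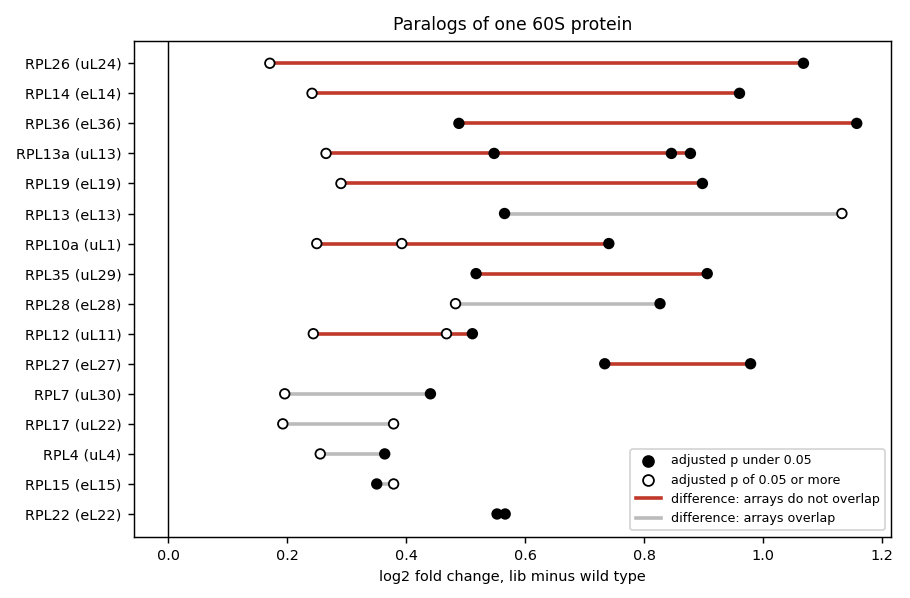
Log2 fold change (lib minus wild type) of each measured paralog, for 16 of the 17 protein families with at least 2, ordered by the gap between the highest and the lowest paralog. Red lines mark the 9 families in which the per-array difference of these paralogs does not overlap between lib and wild type; RPL26 has the widest gap, 0.90.

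The size of the change moved with the brightness of the probe set. Across the 43 members, the Spearman correlation between the mean log2 signal and the log2 fold change was -0.77, a description over genes that share the same 6 arrays. In 15 of the 17 families the paralog with the larger fold change had the dimmer probe set, RPL4 and RPL15 being the exceptions, and this held in all 9 families whose differences did not overlap. Over the 2275 brightest probe sets of the array (the top 10%), this signed correlation was 0.06. Those probe sets changed in both directions, unlike the members, so the value cannot show whether the size of a fold change depends on brightness in general. Brightness depends on the probes as well as on the transcript, so it does not rank the paralogs by abundance, and its part in the unequal fold changes was not tested. Bright probe sets in general did not share the shift: these 2275 had a median log2 fold change of 0.06, with 23.1% called higher and 19.3% called lower in lib. The 40 members among them had a median of 0.48, and 24 of them rose.

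**Figure D4:**
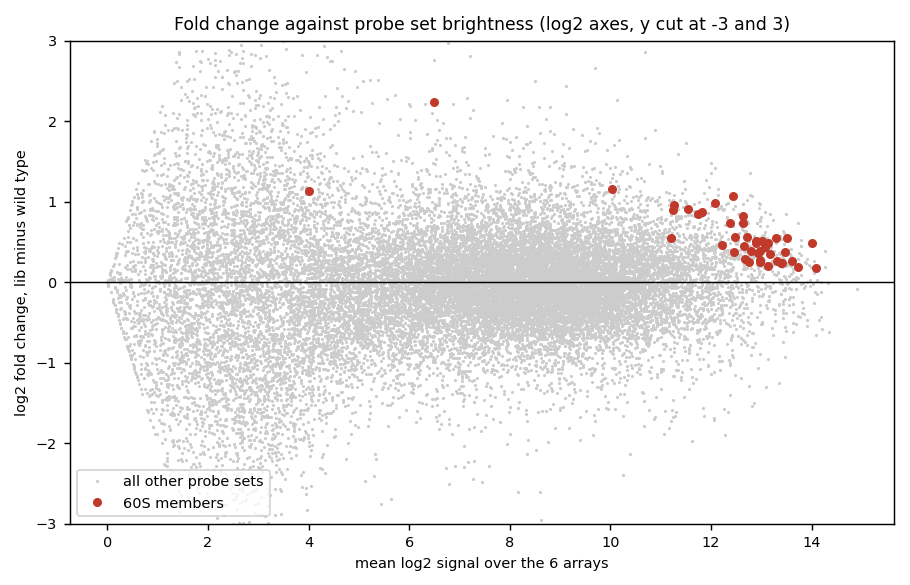
Log2 fold change (lib minus wild type) against the mean log2 signal over the 6 arrays, for all probe sets in grey and the 43 members in red. The members lie above 0 at the bright end, and those with less signal have the larger fold changes.

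The genes of the small (40S) subunit, which pairs with the 60S subunit to translate, were shifted in the same direction. Of 45 measured 40S genes, from a list of 92, 31 rose and 0 fell, and the median log2 fold change was 0.56. Over all probe sets 10.4% were called higher, and 23.1% of the brightest 10%. The 40S count was 20 without lib replicate 1 (2705 of all probe sets called). It was 17 without the intensity trend (2383 of all, against 4708). By smallest p, AT2G45710 (RPS27) was higher by 1.38 (SE 0.09) and AT3G57490 (RPS2) by 1.12 (SE 0.09). The 60S and 40S lists were not tested against each other. Factors that build ribosomes in the nucleolus rose in 5 of 12 cases, with 0 lower and a median of 0.33. Among them AT3G15460 at 1.48 (SE 0.14) and AT1G52930 at 0.80 (SE 0.08) are related to Brx1, which budding yeast needs to form its 60S subunit. AT2G44860, which rose by 0.72 (SE 0.11), is related to yeast Rlp24, a place holder for a 60S protein in the assembling particle.

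The chloroplast has a ribosome of its own, with a 50S large subunit whose proteins are encoded in part in the nucleus. Of 7 measured nuclear genes for such proteins, from a list of 25, 0 rose and 1 fell, with a median of -0.36. Over all probe sets 10.3% were called lower. AT2G43030 fell by 0.43 (limma, SE 0.13, adjusted p = 0.0483), and AT4G01310 at -0.36 (adjusted p = 0.0570, limma) and AT1G29070 at -0.46 (adjusted p = 0.0573, limma) did not pass. The count of 1 was not stable: it was 3 without lib replicate 3, 1 without wild type replicate 3 and 0 without each of the other arrays, 4 with array weights and 0 without the intensity trend, the other settings lying between these. The difference between the cytosolic and the plastid lists was not tested as such.

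Markers of other tissues and of dividing cells stood beside these changes as follows. The summed signal of the 4 shoot markers was 1092 to 1492 on the lib arrays, against 1658 to 2636 on the wild type arrays. LHCB4.1 and RCA fell (both by 0.62 on the log2 scale), and PRK stood at -0.70 (SE 0.41) and SBPASE at -0.28 without a call. PRK, with signals of 27.6 to 79.7 over all arrays, and SBPASE, with 25.3 to 66.4, were dim. The 2 shoot marker calls became 1 without wild type replicate 3 and 0 without each of the other arrays in turn. The 3 root markers summed to 13542 to 15628 on the lib arrays, against 17811 to 21898 on the wild type arrays, and most of this sum was PYK10, with 11847 to 14025 on the lib arrays, against 16373 to 20685 on the wild type arrays. PYK10 fell by 0.47, and EXPA7 at 0.20 and EXPA18 at -0.00405 did not pass. The 3 measured genes of cell division, from a list of 8, summed to 1191 to 1315 on the lib arrays, against 872 to 1046 on the wild type arrays. AUR2, which encodes a mitotic kinase, rose by 0.68 (limma, SE 0.16, adjusted p = 0.0186), and AUR1 at 0.22 and PRL at 0.28 did not pass. The calls of PYK10 and AUR2 were also not stable when 1 array was left out, where fewer probe sets were called in all. No root marker was called with any 1 array left out. Of the cell division genes, 1 was called without lib replicate 2 or wild type replicate 3 and 0 without each of the others. None of these markers was at 0 on any array, but detection calls were not used here, so the dim ones are not shown to be detected. The part of the markers in the shift of the ribosomal protein genes was not tested.

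**Figure D5:**
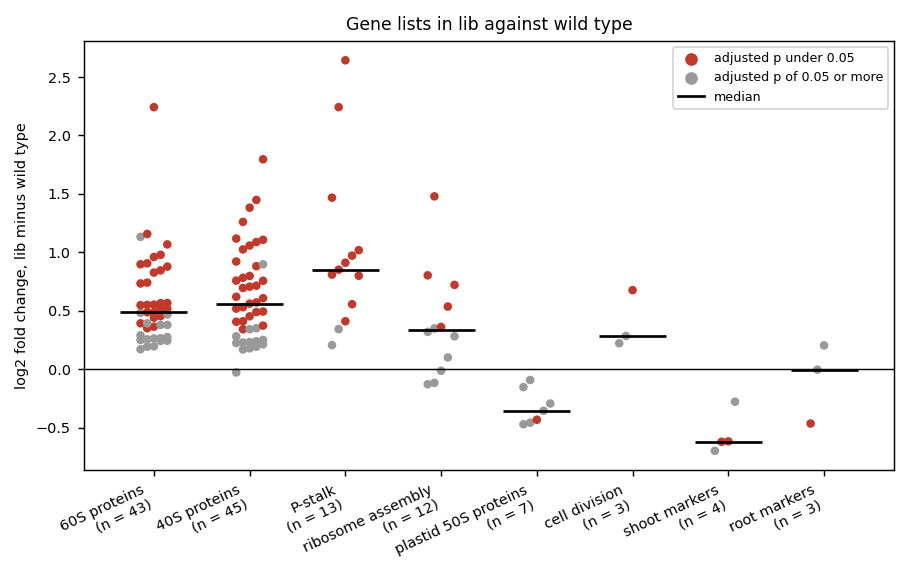
Log2 fold change (lib minus wild type) of every measured gene in the 60S list and in 7 other lists, with the median of each list as a bar and calls at an adjusted p under 0.05 in red. The 60S, 40S, P-stalk and assembly lists have medians between 0.33 and 0.85, and the plastid 50S list has a median of -0.36; AT3G28500 appears in both the 60S and the P-stalk list.

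The authors' deposited table gives its own ratio and p-value for each probe set. In the authors' deposited table all 43 members have a ratio of lib to wild type above 1, from 1.13 to 4.40 with a median of 1.40. An unadjusted p under 0.05 stands in the authors' deposited table for 32 of these 43, all with a ratio above 1. Over all probe sets it stands for 5383 of 22746 (23.7%), which counts both directions. When the p-values of the authors' deposited table were adjusted over all probe sets (Benjamini-Hochberg), 2 members lay under 0.05, AT2G39390 at 0.0350 and AT3G22230 at 0.0485, out of 66 probe sets in all.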

How the data were processed

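The deposited table holds log2 signals of 22746 probe sets, for which the submitters' processing notes name MAS5 without a version. On the linear scale each array had a trimmed mean near 496, which shows a common scaling by the authors, and the values were used as deposited. A second deposited table gives the authors' p-value (unadjusted) and ratio of lib to wild type, which equals the ratio of mean linear signals. Probe sets were tied to loci through the platform annotation and gene identifiers (TAIR10.1); 13513 probe sets had 1 gene, 503 several and 8730 none. Protein families follow the usual Arabidopsis ribosomal protein names, which the annotation does not give.

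All probe sets were fitted with limma 3.58.1 in R 4.3.3 (lmFit, eBayes with an intensity trend, 2-sided), tested on simulated data beforehand. Differences between paralogs used an exact permutation test over the 6 arrays. With 3 arrays per group, precision is limited by their number. The labels do not say whether the replicate numbers pair the samples. Deviations of same-numbered arrays correlated at 0.05, -0.20 and -0.23, which shows no pairing but cannot exclude it. Members and lists were chosen with earlier results of these data known. Described array by array are the 10 members with the largest and the 5 with the smallest log2 fold change. From each other list the 3 genes of smallest p were to be named, mostly by log2 fold change only. Some further genes of these lists, such as AT5G40040, are named outside this rule. A few genes that this account would otherwise name are not reported here; they remain in all counts and medians. Alternatives were other normalizations (quantile, median centring, cyclic loess), log2(signal + 16), no intensity trend, a filter on dim probe sets, array weights, a block, other probe set choices, an adjusted p under 0.01 and each array left out.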

Additional observations from a re-analysis of the deposited data

How the results depend on the processing

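No member was called lower in any setting tried, and the median log2 fold change of the 60S genes stayed positive throughout. The count of 26 members that rose became 12 without the intensity trend (2383 of all probe sets, against 4708), 14 at an adjusted p under 0.01 (2257 of all) and 14 to 24 with each array left out (2705 to 3747 of all). With the p-values of the authors' deposited table, adjusted by Benjamini-Hochberg, it was 2 (66 of all). With only probe sets above the median kept, 33 of 41 members rose (4585 of 11373 probe sets called). The authors' unadjusted p gave 32 (5383 of all). The other settings gave 17 to 29 (3442 to 5602 of all). The median of 0.49 became 0.41 with quantile normalization and 0.40 to 0.56 with each array left out. AT3G48960 reversed to -0.049 without wild type replicate 1, and its range with each array left out reached 1.85. With the replicate number as a block, 17 members rose (3442 of all). The labels do not say whether these numbers pair the samples. The RPL26 difference was 0.90 with the block and 0.79 to 0.95 over the other settings run. Each member has 1 probe set, so other choices of probe set changed nothing. Cross-hybridisation between paralogs could not be checked, because the probes were not used here. The causes of these changes were not tested.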

Other observations

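One probe set with several genes in the annotation holds a listed locus that has none of its own: it is shared by AT1G74060 and AT1G74050, both genes for RPL6. Its signal was 5377, 5182 and 5047 on the lib arrays, against 4806, 4975 and 5004 on the wild type arrays. The lib arrays were narrowly above the wild type arrays, and the log2 fold change was 0.08 (limma, SE 0.09, adjusted p = 0.597), whereas the RPL6 gene with a probe set of its own, AT1G18540, rose by 0.45 (SE 0.11). The difference between these probe sets was not tested.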
